A study of Mus musculus with 6 samples.

Results

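The nuclear genome encodes most protein subunits of the mitochondrial respiratory chain and of ATP synthase, and their transcripts were measured here in livers of Entpd8 knockout (KO) and wild-type (WT) mice. The members were the protein-coding genes whose symbol starts with Ndufa, Ndufb, Ndufc, Ndufs, Ndufv, Uqcr, Cox4 to Cox8 or Atp5, with the Ndufaf assembly factors and 11 pseudogene rows left out. These were 81 of 45706 genes in the table: 36 of complex I, 8 of complex III, 20 of complex IV and 17 of complex V. Poly(A)-enriched liver RNA was sequenced for 3 samples labelled ENTPD-8 knockout (KO 1 to KO 3) and 3 labelled wild type (WT 1 to WT 3). The product of Entpd8, NTPDase8, is a cell-surface enzyme that breaks down nucleotides outside cells, and the stated subject of the series is liver ischemia. The labels give neither the knockout allele nor the strain, sex or age of the mice, and do not say whether these livers had been ischemic. Nor do they say that each library is a separate animal. The spread behind every p-value is therefore that among 3 libraries per genotype, and part of it may be technical.

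In the respiratory chain, complex I takes electrons from NADH and complex II takes them from succinate. They pass through coenzyme Q, complex III and cytochrome c to complex IV, which reduces oxygen to water. Complexes I, III and IV pump protons across the inner mitochondrial membrane, and complex V (ATP synthase) lets them flow back and makes ATP. A small set of core subunits is encoded in mitochondrial DNA and the remainder in the nucleus, so the complexes are built from the products of both genomes. Hepatocytes are rich in mitochondria and use this chain to oxidise fatty acids and to power urea synthesis and glucose production.

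Total counts ran from 40800058 to 46473531 in KO libraries and from 32768774 to 39929978 in WT libraries. Entpd8, the targeted gene, had estimated counts of 15, 29 and 52 in KO libraries, against 1416, 876 and 2034 in WT libraries. The 8 hepatocyte markers, which include albumin, took 7.47 ± 0.676% of the counts in KO libraries and 6.89 ± 0.918% in WT libraries (SD, n = 3 each). None of these 8 passed the test, with 1 lower (Apob) and 0 higher at an unadjusted p under 0.05, and albumin alone averaged 49378 CPM in KO and 39635 CPM in WT livers. The test was edgeR's quasi-likelihood test on all 14069 genes that passed the low-count filter, with a Benjamini-Hochberg adjusted p under 0.05 as the threshold. At an unadjusted p under 0.05, 16.8% of all genes tested were higher and 19.2% lower. In bulk tissue, fewer cells of a type and less RNA per cell cannot be told apart.

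Promoters are shown first for 4 members, because genes of the chain are known to share promoter elements. Whether such elements bear on the levels in KO livers was not tested. In mammals, sites for the factors NRF1, GABPA (an ETS factor), YY1 and the estrogen-related receptors (ERR) are known in promoters of respiratory genes. Each window is a RefSeq promoter in GRCm38.p6, from 250 bases before to 50 bases after a gene's start, and all of those shown lie on the minus strand. Capitals mark a match to GCGCATGCG (NRF1), CTTCCGG (ETS) or AAGATGGC (YY1) in either direction, and all other bases are in lower case. The first is Ndufa6 (chr15:82354242-82354541), the complex I member that passed the test, which held none of the motifs.
Ndufa6: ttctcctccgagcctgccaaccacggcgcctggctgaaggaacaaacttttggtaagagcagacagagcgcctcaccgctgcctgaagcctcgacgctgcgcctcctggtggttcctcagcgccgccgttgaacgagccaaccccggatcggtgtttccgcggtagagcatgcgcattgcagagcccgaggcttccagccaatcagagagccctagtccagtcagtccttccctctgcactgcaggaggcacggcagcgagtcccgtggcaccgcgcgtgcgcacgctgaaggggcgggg
Uqcr11 (chr10:80406772-80407071) and Cox6a1 (chr5:115348909-115349208) are shown as the complex III and complex IV members whose windows held an NRF1 and an ETS match each. In Cox6a1 the capitals of the NRF1 match cover overlapping matches on both strands.
Uqcr11: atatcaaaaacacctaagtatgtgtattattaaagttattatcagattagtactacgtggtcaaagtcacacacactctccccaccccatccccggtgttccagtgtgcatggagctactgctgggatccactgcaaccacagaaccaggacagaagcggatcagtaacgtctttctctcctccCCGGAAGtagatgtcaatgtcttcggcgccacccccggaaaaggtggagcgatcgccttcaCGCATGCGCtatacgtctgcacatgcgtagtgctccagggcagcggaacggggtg
Cox6a1: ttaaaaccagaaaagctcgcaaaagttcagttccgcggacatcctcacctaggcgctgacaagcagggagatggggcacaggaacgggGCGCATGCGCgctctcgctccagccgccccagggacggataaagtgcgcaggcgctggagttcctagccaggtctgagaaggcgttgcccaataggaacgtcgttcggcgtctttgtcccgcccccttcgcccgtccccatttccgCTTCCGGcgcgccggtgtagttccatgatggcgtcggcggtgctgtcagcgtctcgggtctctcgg
Atp5j (chr16:84834927-84835226) is shown for complex V, and its window held a YY1 match and an ETS match. Atp5l and Atp5k each had an NRF1 and an ETS match. Of these, Atp5j was taken because its log2 fold change was the largest. A second listed start of Atp5j, further upstream, held none of the motifs.
Atp5j: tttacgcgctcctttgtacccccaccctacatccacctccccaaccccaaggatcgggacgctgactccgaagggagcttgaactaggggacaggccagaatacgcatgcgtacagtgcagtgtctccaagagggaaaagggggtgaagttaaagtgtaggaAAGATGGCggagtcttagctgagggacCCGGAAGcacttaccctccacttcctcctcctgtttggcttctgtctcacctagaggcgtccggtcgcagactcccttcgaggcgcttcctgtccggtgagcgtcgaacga

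Of the 81 members, 64 had a promoter entry in the RefSeq table. GCGCATGCG, searched on both strands, was found for 8 of them (12.5%), against 3.87% of the 10525 tested genes with an entry and 1.95% of all 27025 genes with one. AAGATGGC was found for 9 members (14.1%), against 5.05% of tested genes and 3.19% of all genes. CTTCCGG was common in both, at 14 members (21.9%) against 19.3% of tested genes and 9.93% of all genes. The ERR sequence TCAAGGTCA was found for 1 member (1.56%), Atp5g3, against 0.333% of tested genes. Members had 1.08 windows per gene and tested genes 1.28, so the members' higher shares did not come with more windows searched. A match describes the letters in the window, and no binding was measured.

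Across the nuclear-encoded subunits, transcript levels lay slightly higher in KO livers. Uqcrb and Ndufa6 were the members that rose past the test's threshold, and none fell. Higher calls were thus 2 of 75 tested members, where 9.8% of all genes tested were called higher and 10.6% lower, so the called share was below the background. The log2 fold change was above 0 for 73 of 75 members, against 47.9% of all genes tested, with no test of single genes in that count, and for 71 when libraries were scaled by their totals alone. Its median was 0.27 over the members and -0.02 over all genes tested. The members' values ran from -0.36 to 0.53. At an unadjusted p under 0.05, 20 members were higher and 0 were lower, against 16.8% higher and 19.2% lower of all genes tested. Other tools called more of the members, 8 with DESeq2 (background 13.5% higher) and 3 with limma voom (background 9.91% higher).

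**Figure D1:**
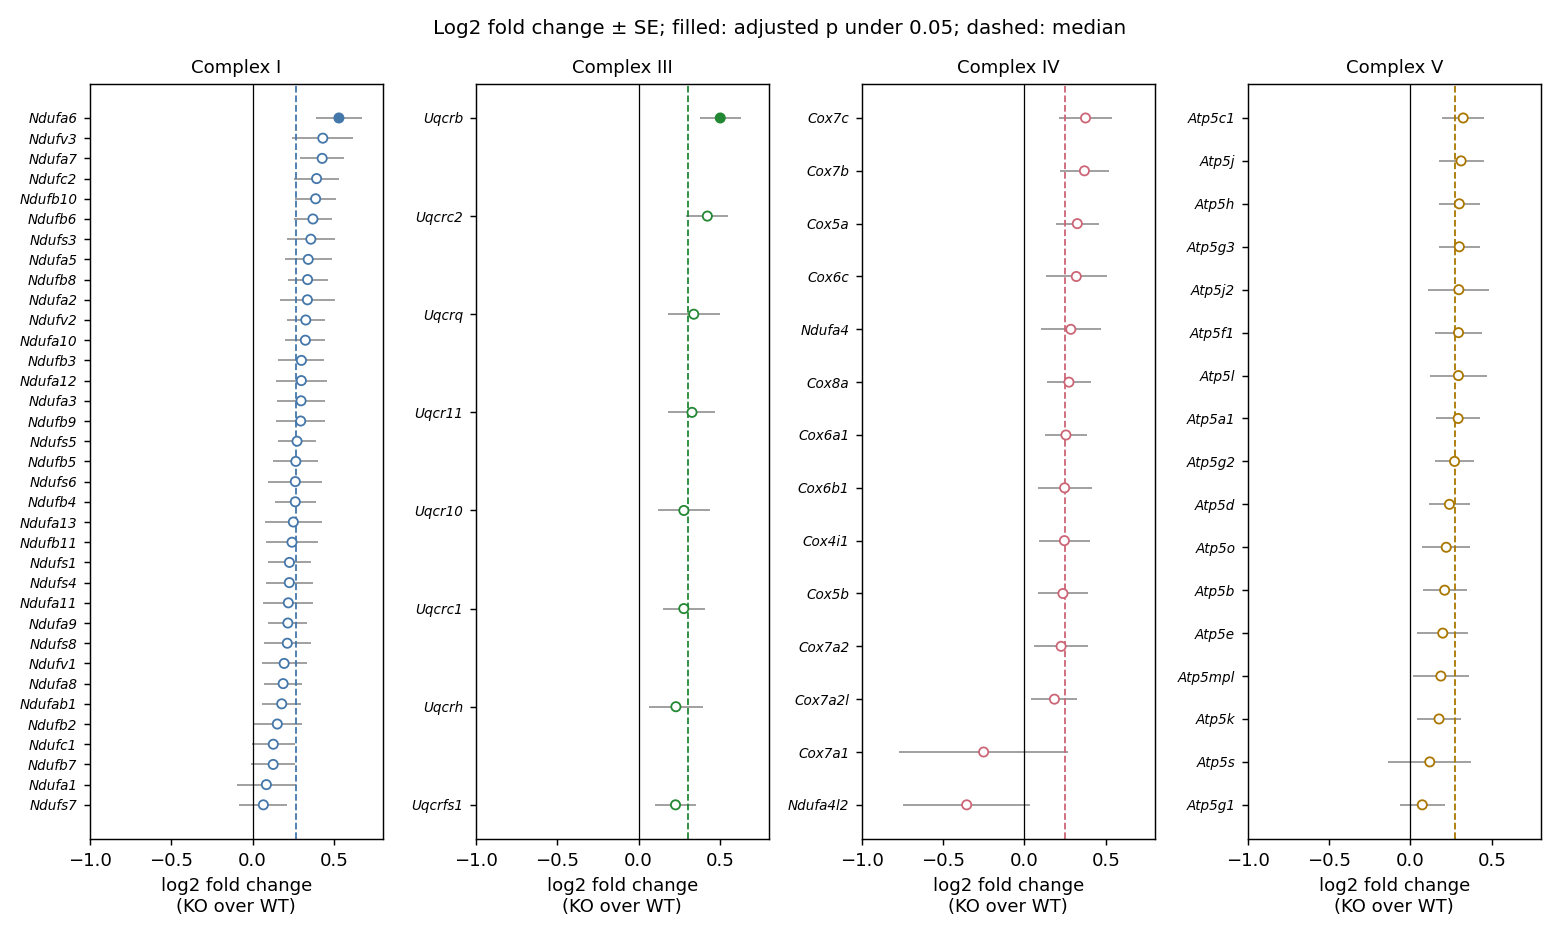
Log2 fold change (KO over WT) of the tested members named here, grouped by complex, with bars of 1 standard error, called members filled and the median of each complex dashed. Nearly all points lie between 0 and 0.5, Ndufa6 (0.53) and Uqcrb (0.50) are the called members, and the 2 points below 0 are Cox7a1 and Ndufa4l2.

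The groups did not overlap for 26 of 75 members (34.7%), all of them higher in KO livers, whereas 18.7% of all genes tested were higher without overlap and 22.0% lower without overlap. By complex these were 13 of 36 members in complex I, 5 of 8 in complex III, 1 of 14 in complex IV and 7 of 17 in complex V. The median log2 fold change was 0.26 in complex I, 0.30 in complex III, 0.25 in complex IV and 0.27 in complex V. These medians lay closer together than the members within any complex. Differences between complexes were not tested.

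**Figure D2:**
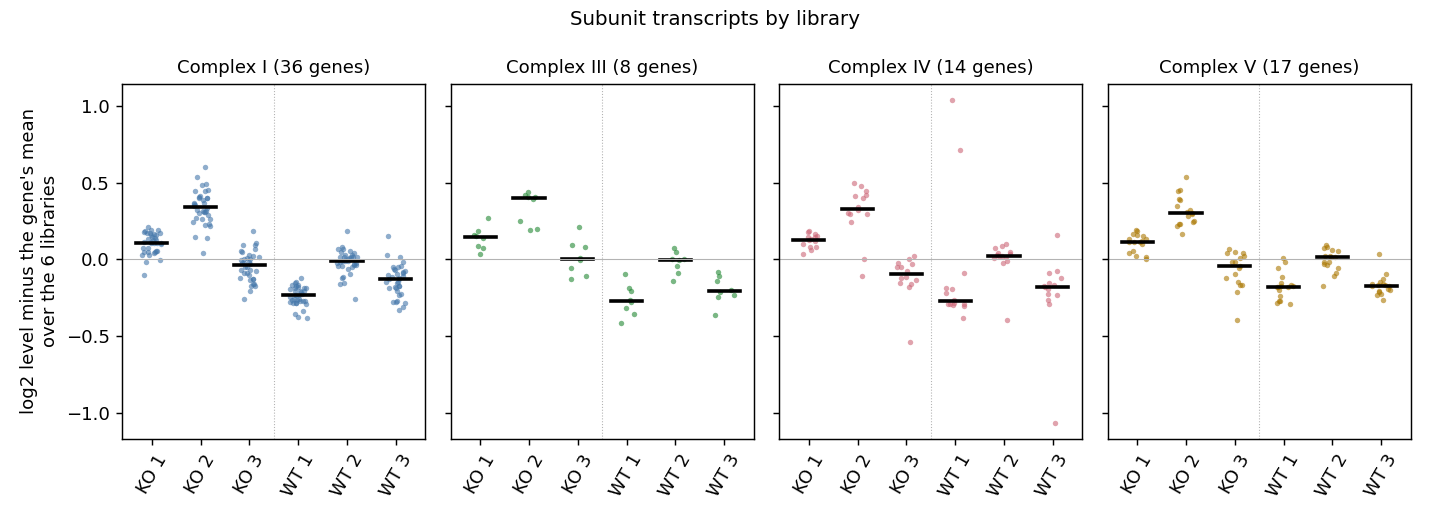
Log2 level of each tested member (points) relative to its own mean over the 6 libraries, by library and complex, with the median as a bar. KO 2 lies highest and WT 1 lowest in every complex, and KO 3 lies near WT 2.

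The libraries were not evenly spread. The median deviation of the 75 members from their own mean, on the log2 scale, was 0.12, 0.32 and -0.05 in KO 1, KO 2 and KO 3, against -0.23, 0.00299 and -0.17 in WT 1, WT 2 and WT 3. The groups therefore overlapped at the level of the whole set, since KO 3 lay below WT 2. KO 2 was the highest library for 72 of 75 members, and WT 1 was the lowest for 48 and WT 3 for 21. KO 3 was the lowest KO library for 71 members and the lowest of all 6 for 6. Without KO 2 the median log2 fold change was 0.16 and 66 of 75 members were above 0. Without KO 3 it was 0.36.

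Transcript length moved with the same libraries. Over all genes tested with transcripts under 1000 bases, the median deviation was 0.08, 0.29 and -0.08 in KO 1, KO 2 and KO 3, against -0.13, 0.00879 and -0.13 in WT 1, WT 2 and WT 3. This is the order of libraries seen for the members, whose median transcript length was 732 bases. Members of 500 to 700 bases had a median log2 fold change of 0.30 (25 members), against 0.21 for all 350 genes of that length. Below 500 bases both medians were 0.19, over 10 members and 206 genes. From 700 to 1000 bases the members' median was 0.25 (17 members), against 0.14 for 756 genes. Longer members stood further from genes of their length. Those of 1000 to 2000 bases had a median of 0.24 (20 members), against 0.07 for 3469 genes. The 3 members of 2000 bases or more, Ndufa10, Ndufs1 and Atp5a1, had a median of 0.29, against -0.10 for 9242 genes. With the length trend of each library removed, the members' median was 0.11, 65 of 75 were above 0 and none was called. The share of length in the difference between genotypes was not tested further.

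**Figure D3:**
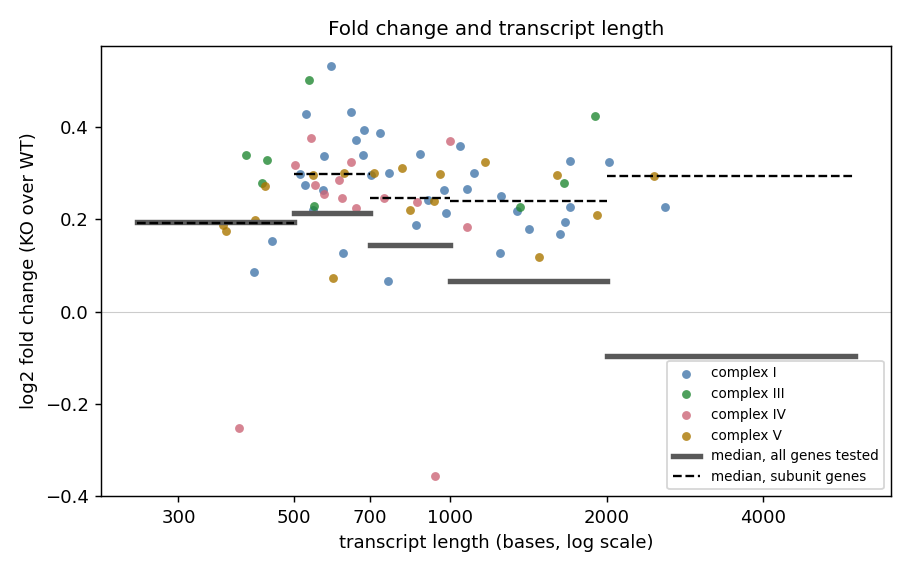
Log2 fold change (KO over WT) of each tested member (points, by complex) against transcript length in bases on a log axis, with the median per length class for members (dashed) and for all genes tested (grey). Members and all genes meet at 0.19 in the shortest class, and the members lie above in every longer class. Their medians there are 0.30 against 0.21, 0.25 against 0.14, 0.24 against 0.07 and 0.29 against -0.10.

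Levels are compared between genes in CPM per kilobase of transcript (CPM, the share of a gene in the TMM-scaled library, divided by the length of its principal transcript). On this scale complex I transcripts were the least abundant, with a median over members of 79.9 CPM per kilobase in KO livers and 65.5 in WT livers. Complex III had 200.2 in KO and 153 in WT livers, the tested complex IV members 216 in KO and 175 in WT livers, and complex V 186 in KO and 151 in WT livers. All 81 members together took 0.924%, 1.02% and 0.893% of the counts in the KO libraries, against 0.759%, 0.862% and 0.861% in the WT libraries. As shares of all counts, not scaled by TMM, these sums did not overlap, and the lowest KO library (KO 3) was close to the 2 higher WT libraries.

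**Figure D4:**
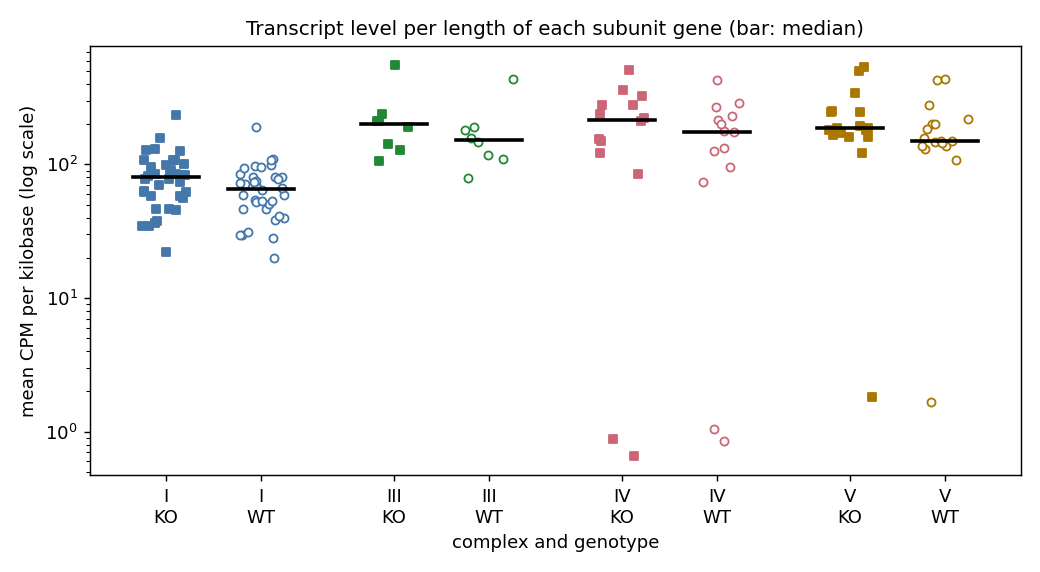
Level of the tested members in CPM per kilobase on a log axis, by complex, KO left of WT, each point the mean of 3 libraries, with the median as a bar. Complex I lies lowest, and Ndufa4l2, Cox7a1 and Atp5s lie near 1, far below all other members.

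Complex I, or NADH dehydrogenase, had the largest number of members, and all 36 were tested. Its nuclear core subunits carry the flavin and iron-sulfur clusters that move electrons from NADH to coenzyme Q, while the accessory subunits surround and stabilise this core. The 7 core members had a median log2 fold change of 0.21 and the 29 accessory members one of 0.27. Ndufa6, an accessory subunit of the LYR family encoded on the minus strand of chromosome 15 (82350140 to 82354322 in GRCm38), rose in KO livers. It measured 148, 190.1 and 137 CPM per kilobase in KO 1, KO 2 and KO 3, against 112, 109 and 108 in WT 1, WT 2 and WT 3. All KO libraries lay above all WT libraries, and KO 2 was the highest. The means were 159 ± 27.9 in KO and 109.7 ± 1.71 CPM per kilobase in WT livers (SD, n = 3 each), with a log2 fold change of 0.53 ± 0.14 (SE) and an adjusted p of 0.0339. The call was lost with the length trend removed (adjusted p = 0.0546) and when WT 1, WT 2, WT 3, KO 1 or KO 2 was left out, with 0.0981 as the highest adjusted p.

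The most abundant complex I member was Ndufb9, also a LYR protein. It had 226, 271 and 206 CPM per kilobase in KO libraries and 182, 216 and 174 in WT libraries, with KO 3 below WT 2. Its log2 fold change was 0.30 ± 0.15 (adjusted p = 0.194). Several accessory members came close to the threshold: Ndufa7 had a log2 fold change of 0.43 ± 0.13 (adjusted p = 0.0569), Ndufb6 one of 0.37 ± 0.12 (adjusted p = 0.0574) and Ndufb10 one of 0.39 ± 0.12 (adjusted p = 0.0607). For each of these 3 the KO libraries lay above the WT libraries. Ndufa7, at 106, 127 and 93.0 CPM per kilobase in KO libraries against 76.3, 83.6 and 82.5 in WT libraries, shows the size of that gap. The core subunit Ndufv2, an iron-sulfur protein of the NADH-binding module, had 58.5, 63.4 and 53.0 CPM per kilobase in KO libraries, against 44.1, 48.5 and 46.7 in WT libraries (log2 fold change 0.33 ± 0.12, adjusted p = 0.0809).

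The other core members varied more. Ndufs7, an iron-sulfur subunit next to the site where coenzyme Q binds, had the smallest log2 fold change of complex I, 0.07 ± 0.15 (adjusted p = 0.785). It measured 56.2, 63.5 and 48.8 CPM per kilobase in KO libraries, against 45.3, 55.1 and 60.5 in WT libraries, so the groups overlapped throughout. Ndufs1, the large iron-sulfur subunit, had an order of KO libraries seen for no other tested member: KO 2 was the lowest KO library at 32.7 CPM per kilobase, with 34.8 in KO 1 and 36.0 in KO 3, against 24.8, 31.2 and 32.4 in WT libraries. The other complex I members had adjusted p-values above the threshold and log2 fold changes from 0.09 (Ndufa1) to 0.43 (Ndufv3).

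Complex III, the cytochrome bc1 complex, passes electrons from coenzyme Q to cytochrome c. Its 8 members by the symbol rule are the Rieske iron-sulfur protein Uqcrfs1, the core proteins Uqcrc1 and Uqcrc2, and 5 small subunits. Uqcrb, a small subunit encoded on the minus strand of chromosome 13 (66900617 to 66905378 in GRCm38), rose in KO livers. It had 212, 231 and 187 CPM per kilobase in KO 1, KO 2 and KO 3, against 137, 159 and 148 in WT 1, WT 2 and WT 3, and the groups were well apart. The means were 209.9 ± 21.8 in KO and 148 ± 11.1 CPM per kilobase in WT livers (SD, n = 3 each). The log2 fold change was 0.50 ± 0.13 (SE), with an adjusted p of 0.0281. The call was lost with the length trend removed (adjusted p = 0.0690) and without WT 1, WT 3, KO 1 or KO 2, with 0.121 as the highest adjusted p. The other strand of the locus carries Gm10767, which had 47, 26 and 61 counts in KO libraries and 24, 21 and 27 in WT libraries, beside 4449, 4955 and 4767 counts of Uqcrb itself in KO libraries and 2660, 3322 and 2858 in WT libraries.

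Uqcrc2 just missed the threshold, with a log2 fold change of 0.42 ± 0.13 (adjusted p = 0.0516). Its KO libraries were close together at 104, 109 and 106 CPM per kilobase, against 69.0, 86.4 and 83.1 in WT libraries. Uqcrc1, its partner core protein, had 143, 147 and 136 CPM per kilobase in KO libraries, against 103, 129 and 119 in WT libraries (log2 fold change 0.28 ± 0.13, adjusted p = 0.164). In these long transcripts KO 3 stood above every WT library, as it did for Uqcrfs1. Uqcrfs1 had the smallest log2 fold change of the complex, 0.23 ± 0.13, at 131, 136 and 119.9 CPM per kilobase in KO libraries against 99.0, 119 and 112 in WT libraries. The small subunit Uqcrq was the most abundant of all 81 members in KO livers, with 541, 644 and 468 CPM per kilobase in KO libraries and 455, 473 and 379 in WT libraries. Uqcr11, the other of the complex's most abundant members, had 226, 282 and 212 in KO libraries and 176, 212 and 186 in WT libraries. For both, KO 3 was at about the level of WT 2, and adjusted p was 0.165 for Uqcrq and 0.142 for Uqcr11.

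Complex IV, cytochrome c oxidase, has its catalytic centres in mitochondrially encoded subunits, and the nuclear members surround and regulate them. None of the 14 tested members passed the test or was called by DESeq2. At an unadjusted p under 0.05, 3 were higher and 0 lower, against 16.8% higher and 19.2% lower of all genes tested. The 11 members that are general or typical of liver had a median log2 fold change of 0.27. Of these, 1, Cox5a, was higher without overlap, as were 18.7% of all genes tested. Cox5a, whose product faces the matrix, measured 222, 244 and 200.2 CPM per kilobase in KO libraries, against 174, 196 and 161 in WT libraries (log2 fold change 0.32 ± 0.13, adjusted p = 0.116). Cox4i1, the general form of subunit 4 that takes part in the regulation of the oxidase by ATP, was the most abundant, with 520.2, 573 and 443 in KO libraries and 382, 493 and 421 in WT libraries. A predicted read-through gene over the same locus, Gm20388, had 539, 812 and 0 counts in KO libraries and 0, 1020 and 335 in WT libraries, beside 15229, 17126 and 15691 counts of Cox4i1 in KO libraries and 10331, 14326 and 11292 in WT libraries. Cox6c had 340.1, 442 and 292 CPM per kilobase in KO libraries, against 258, 340.0 and 264 in WT libraries. Cox7c had the largest log2 fold change of complex IV, 0.38 ± 0.16 (adjusted p = 0.138), with 265, 331 and 239 in KO libraries and 186, 243 and 214 in WT libraries. In all of these except Cox5a, KO 3 lay below WT 2. Ndufa4, first counted with complex I and now known as an oxidase subunit, had 309, 413 and 259 CPM per kilobase in KO libraries and 256, 299 and 249 in WT libraries (log2 fold change 0.29 ± 0.18, adjusted p = 0.307).

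Several complex IV subunits exist as paired isoforms, of which the heart and muscle, lung, hypoxia-linked or testis forms are not typical of liver. These forms were at or near 0 in both genotypes. Cox6a2 and Cox8b, the striated muscle forms of subunits 6a and 8, had 0, 0 and 0 counts (Cox6a2) and 3, 0 and 9 counts (Cox8b) in KO libraries, against 1, 0 and 0 (Cox6a2) and 0, 0 and 1 (Cox8b) in WT libraries. Cox4i2, the lung form of subunit 4, had 2, 1 and 7 counts in KO libraries and 6, 3 and 3 in WT libraries, and Cox6b2, the testis form of subunit 6b, had 2, 11 and 3 in KO libraries and 6, 3 and 2 in WT libraries. Cox7b2 and Cox8c, both known from testis, had 0 counts in every library. These 6 were the members left out by the low-count filter. The general forms therefore made up at least 99.7% of their pairs on the per-length scale in every library for subunits 4, 6a, 6b, 7b and 8.

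Cox7a1, the heart and muscle form of subunit 7a, passed the filter at a low level, with 0.907, 0.888 and 0.856 CPM per kilobase in KO libraries and 1.82, 0.913 and 0.424 in WT libraries. Its log2 fold change of -0.25 ± 0.52 rested on WT 1 and was 0.38 without that library (adjusted p = 0.643). Ndufa4l2, a hypoxia-responsive relative of Ndufa4, had 0.817, 0.667 and 0.495 CPM per kilobase in KO libraries, against 1.18, 0.549 and 0.803 in WT libraries (log2 fold change -0.36 ± 0.39, adjusted p = 0.554). For Cox7a1 the WT libraries spanned the KO libraries, and for Ndufa4l2 the groups overlapped, with KO 3 the lowest and WT 1 the highest. Within subunit 7a, the general form Cox7a2 made up 64.4 ± 1.06% of the per-length level in KO and 63.7 ± 1.81% in WT livers (SD, n = 3 each). Most of the remainder was Cox7a2l, which is a factor that joins complexes III and IV into supercomplexes rather than a subunit isoform, at 35.3% in KO and 35.8% in WT livers. Heart and skeletal muscle markers were scarce: Myh6, Myl2 and Ckm had 0 counts in every library, and the 8 markers together took at most 0.000570% of a KO library and 0.000552% of a WT library.

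Complex V consists of the F1 head, which makes ATP, a ring of c subunits driven by protons, a peripheral stalk and small membrane subunits. All 17 members were tested, none passed and all had a log2 fold change above 0. At an unadjusted p under 0.05, 3 were higher and 0 lower, against 16.8% higher and 19.2% lower of all genes tested. DESeq2 called Atp5g3, where it called 13.5% of all genes tested higher. Atp5g1 turned to -0.00408 when libraries were scaled by their totals alone, and Atp5g1, Atp5e, Atp5k and Atp5mpl were below 0 with the length trend removed. The median was 0.24 for the 5 F1 members, 0.30 for the 4 stalk members, 0.27 for the 3 c ring genes and 0.24 for the 4 small membrane members. Of the F1 members, 4 of 5 had groups that did not overlap, all of them higher in KO livers. Of all genes tested, 18.7% were higher without overlap and 22.0% lower. Atp5c1, the central shaft that turns inside the head, had the largest log2 fold change of the complex at 0.32 ± 0.13 (adjusted p = 0.111). It measured 172, 186 and 158 CPM per kilobase in KO libraries, against 127, 152 and 134 in WT libraries. Atp5b, the catalytic beta subunit, had 502, 519.6 and 479 in KO libraries and 411, 471 and 415 in WT libraries (log2 fold change 0.21 ± 0.14, adjusted p = 0.304). The stalk members Atp5h and Atp5j also had KO libraries above all WT libraries, with Atp5j at 180.0, 218 and 162 CPM per kilobase in KO libraries and 147, 155 and 149 in WT libraries (log2 fold change 0.31 ± 0.14, adjusted p = 0.145). None of the small membrane members did. Atp5s, a coupling factor kept by the symbol rule, was expressed far below the other complex V genes, at 1.81 ± 0.456 CPM per kilobase in KO and 1.67 ± 0.130 in WT livers (SD, n = 3 each).

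The c ring is made from 3 genes, Atp5g1, Atp5g2 and Atp5g3, which encode the same mature protein behind different import sequences. Atp5g3 was the largest source, with 534, 579 and 509.8 CPM per kilobase in KO libraries and 436, 467 and 414 in WT libraries (log2 fold change 0.30 ± 0.13, adjusted p = 0.130). Atp5g2 had 189, 194 and 163 in KO libraries and 146, 163 and 143 in WT libraries. Atp5g1 had 197, 220.3 and 169 in KO libraries and 188, 202 and 168 in WT libraries, the smallest log2 fold change of the complex at 0.07 ± 0.14 (adjusted p = 0.746). As shares of the 3 per-length levels, Atp5g3 made up 59.0 ± 1.40% in KO and 56.6 ± 0.498% in WT livers, and Atp5g1 made up 21.2 ± 1.07% in KO and 23.9 ± 0.683% in WT livers (SD, n = 3 each). Neither share overlapped between the genotypes, whereas Atp5g2 made up 19.8 ± 0.638% in KO and 19.4 ± 0.435% in WT livers. With 3 against 3 libraries the smallest 2-sided exact permutation p is 0.1, so that kind of test could not pass a threshold of 0.05. The shares were not tested. The annotated principal transcripts of Atp5g1 and of Atp5g2 differ in length by more than 1.5 times, so the sizes of these shares are less certain.

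The subunits encoded by mitochondrial DNA are partners of the nuclear members in the same complexes. Their median log2 fold change was 0.61, against 0.27 for the nuclear members. Of 13 tested, 5 rose (38.5%, against 9.8% of all genes tested) and 0 fell. These were the oxidase subunits mt-Co2 (0.85 ± 0.16, adjusted p = 0.0114) and mt-Co3 (0.79 ± 0.15, adjusted p = 0.0131), the complex I subunit mt-Nd1 (0.74 ± 0.15, adjusted p = 0.0147) and the ATP synthase subunits mt-Atp6 (0.72 ± 0.17, adjusted p = 0.0248) and mt-Atp8 (0.61 ± 0.17, adjusted p = 0.0397). Without KO 1 none of the 13 was called, and mt-Atp6 and mt-Atp8 were not called when WT 1, WT 3, KO 1, KO 2 or KO 3 was left out, with 0.137 as the highest adjusted p, or with the length trend removed. Scaling by library totals alone also ended the call of mt-Atp8 (adjusted p = 0.0574). The 13 transcripts together took 10.3%, 9.60% and 11.2% of the counts in KO libraries, against 6.12%, 7.94% and 7.33% in WT libraries. Their median deviation was 0.33, 0.27 and 0.35 in KO 1, KO 2 and KO 3, against -0.48, -0.04 and -0.37 in WT 1, WT 2 and WT 3. Here the groups did not overlap and KO 3 was the highest, unlike its place for the nuclear members. The difference between nuclear and mitochondrial members was not tested.

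**Figure D5:**
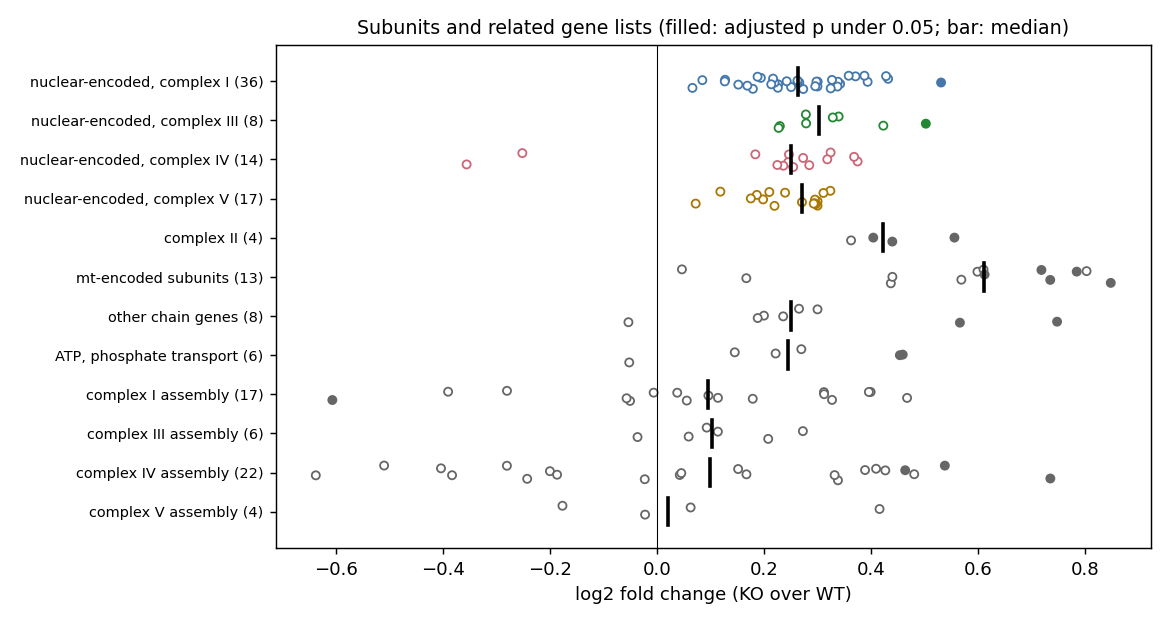
Log2 fold change (KO over WT) of each tested gene, in rows for the nuclear-encoded members by complex and for the related lists, with called genes filled and the median of each row as a bar. The medians of the mitochondrially encoded subunits (0.61) and complex II (0.42) lie above those of the nuclear members (0.25 to 0.30), and those of the assembly factors lie near 0.

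Complex II, or succinate dehydrogenase, is wholly nuclear-encoded and lies outside the symbol rule. The flavoprotein Sdha (log2 fold change 0.44 ± 0.13, adjusted p = 0.0481), the iron-sulfur protein Sdhb (0.56 ± 0.12, adjusted p = 0.0174) and the membrane anchor Sdhc (0.40 ± 0.12, adjusted p = 0.0434) rose. Sdhd had 0.36 ± 0.13 (adjusted p = 0.0762). The share called higher was 75%, against 9.8% of all genes tested. Sdhb had 149, 165 and 141 CPM in KO libraries, against 96.4, 108 and 105 CPM in WT libraries. All 4 genes were higher in KO livers without overlap, as were 18.7% of all genes tested. None of the 4 was called without KO 1, KO 2 or WT 1. Sdha and Sdhc also lost the call without KO 3 or WT 3, with upper-quartile scaling (adjusted p = 0.0635 for Sdha and 0.0612 for Sdhc), with library totals alone (0.0886 for Sdha and 0.0885 for Sdhc) and without the low-count filter (0.0746 for Sdha and 0.0735 for Sdhc), where Sdhb stayed called. With the length trend removed, 3 were called and the median was 0.46.

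Of 8 other genes of the chain, 2 rose (25%, against 9.8% of all genes tested) and 0 fell. They were Gpd2, the mitochondrial glycerol-3-phosphate dehydrogenase (0.75 ± 0.17, adjusted p = 0.0198), and Etfa, a subunit of the flavoprotein that brings electrons from fatty acid oxidation (0.57 ± 0.13, adjusted p = 0.0211). Neither was called without KO 1, KO 3 or WT 1, nor Gpd2 without WT 3 or Etfa without KO 2. Cyc1 (cytochrome c1, 0.27 ± 0.12, adjusted p = 0.155) and Cycs (cytochrome c, 0.24 ± 0.14, adjusted p = 0.268) had log2 fold changes like those of the members. Of 6 genes that move ATP, ADP and phosphate across the mitochondrial membranes, the adenine nucleotide carrier Slc25a5 (0.45 ± 0.12, adjusted p = 0.0346) and the outer membrane channel Vdac1 (0.46 ± 0.12, adjusted p = 0.0297) rose and 0 fell. They made up 33.3% of the 6, where 9.8% of all genes tested were called higher. Neither Slc25a5 nor Vdac1 was called without KO 1, KO 2, KO 3 or WT 3. Slc25a5 was also not called without WT 1 (adjusted p = 0.0851), with the length trend removed (0.0585), with library totals alone (0.0549) or without the low-count filter (0.0566).

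In the reported fit, the assembly factors had medians nearer 0 than the subunits they help to build. Of all genes tested, 9.8% were called higher and 10.6% lower. At an unadjusted p under 0.05, 16.8% were higher and 19.2% lower. For complex I, 0 of 17 rose and 1 fell, Tmem186 (log2 fold change -0.61 ± 0.14, adjusted p = 0.0198), with a median of 0.10. Tmem186 was not called without KO 1 or KO 3, with 0.0822 as the higher adjusted p. For complex III, 0 of 6 were called and 0 had an unadjusted p under 0.05, with a median of 0.10 and the lowest p for Ttc19 (0.27 ± 0.15, adjusted p = 0.223). For complex IV, 3 of 22 tested rose (13.6%, near the background) and 0 fell, with a median of 0.10. They were the copper chaperones Cox19 (0.74 ± 0.13, adjusted p = 0.00984) and Sco2 (0.54 ± 0.13, adjusted p = 0.0262), and Cox20 (0.46 ± 0.14, adjusted p = 0.0479), which helps to insert the second oxidase subunit. Sco2 and Cox20 were not called without WT 1, WT 3, KO 1 or KO 2, with 0.157 as the highest adjusted p. Cox20 was also not called without WT 2 (adjusted p = 0.0895). Nor was it called with the length trend removed, upper-quartile scaling, library totals alone, no low-count filter or limma voom. The highest adjusted p of Cox20 under these settings was 0.239. For complex V, 0 of 4 were called and 1 was higher at an unadjusted p under 0.05, with a median of 0.02 and the lowest p for Fmc1 (0.42 ± 0.14, adjusted p = 0.0651). Assembly factor transcripts were longer, with median lengths per complex of 1256.5 to 2060.5 bases, against 732 for the members. With the length trend removed, the assembly medians were -0.03 (complex I), 0.12 (III), 0.03 (IV) and -0.02 (V). Those of the subunits were then 0.14 (complex I), 0.12 (III), 0.08 (IV) and 0.10 (V), so the medians for complex III were alike. Whether the assembly medians differ from those of the subunits was not tested.

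Among 16 transcriptional and mitochondrial DNA regulators, 1 rose and 2 fell, with a median log2 fold change of -0.11. Of all genes tested, 9.8% were called higher and 10.6% lower, so these counts were near the background. Esrrg, an estrogen-related receptor, rose by 2.75 ± 0.55 on the log2 scale at a low level (adjusted p = 0.0143), with 0.687, 0.523 and 1.37 CPM in KO libraries against 0.0827, 0.102 and 0.194 CPM in WT libraries. Polrmt, the RNA polymerase of mitochondria, fell by 0.68 ± 0.14 on the log2 scale (adjusted p = 0.0145), with 16.1, 16.0 and 14.2 CPM in KO libraries against 23.6, 21.9 and 28.8 CPM in WT libraries. Polrmt was thus lower in the libraries in which transcripts made by that enzyme took a larger share of the counts. Gabpb2, a partner of GABPA, fell by 0.63 ± 0.14 on that scale (adjusted p = 0.0205). Without KO 1 neither was called (adjusted p = 0.0635 for Polrmt and 0.104 for Gabpb2). Gabpb2 was also not called without WT 1 (adjusted p = 0.0582) or without KO 2 (0.0627). Ppargc1a, the coactivator known for driving mitochondrial genes, had 9.44, 10.6 and 6.65 CPM in KO libraries, against 11.1, 6.20 and 7.39 CPM in WT libraries (0.12 ± 0.26, adjusted p = 0.786). Nrf1 (-0.13 ± 0.13, adjusted p = 0.520), Gabpa (-0.22 ± 0.14, adjusted p = 0.304), Yy1 (-0.25 ± 0.12, adjusted p = 0.165) and Tfam (-0.08 ± 0.11, adjusted p = 0.605) did not pass.

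Markers of other cells also moved with genotype, where 9.8% of all genes tested were called higher and 10.6% lower. At an unadjusted p under 0.05 these shares were 16.8% higher and 19.2% lower. The 5 erythroid markers all rose and together took 0.110% to 0.158% of the counts in KO libraries, against 0.0397% to 0.0549% in WT libraries. Of 6 Kupffer cell markers, 3 fell (Clec4f, Cd5l and Vsig4), and the list took 0.00357% to 0.00439% of the counts in KO libraries against 0.00714% to 0.0180% in WT libraries. Of 4 lymphocyte markers, 2 were tested. Igkc rose, with 9.14, 12.8 and 9.04 CPM in KO libraries against 0.937, 0.256 and 0.528 CPM in WT libraries. Cd3e did not pass (adjusted p = 0.0529). The low-count filter left out Cd79a, at a mean of 0.321 CPM in KO and 0.110 CPM in WT libraries. Ms4a1, also left out, was lower in KO libraries, at a mean of 0.104 CPM against 0.145 CPM in WT libraries. No marker of sinusoidal endothelium or stellate cells passed, of 4 tested in each list, with 1 (Lyve1) and 2 (Lrat and Colec11) lower at an unadjusted p under 0.05. Of 2 tested heart and skeletal muscle markers, Tnnt2 rose at a level under 1 CPM in every library. Without KO 1 or KO 3, Alas2, Vsig4, Cd5l and Tnnt2 were not called, nor were Vsig4 and Tnnt2 without KO 2, Alas2 and Vsig4 without WT 1, or Vsig4 without WT 3 or with limma voom. For brown fat, Ucp1 was at most 0.0498 CPM in KO libraries and 0 in WT libraries, while Elovl3, which liver also expresses, rose (1.75 ± 0.23, adjusted p = 0.00423). The third brown fat marker, the lipid droplet protein Cidea, had 4.07, 0.249 and 21.4 CPM in KO libraries, against 0.0276, 0 and 0.0555 CPM in WT libraries. All KO libraries lay above all WT libraries but were uneven, with KO 3 far the highest, and the low-count filter left Cidea out of the reported fit. Without KO 2 it entered the fit and both tested brown fat markers, Cidea and Elovl3, were called higher, while Cidea was not called in the other fits that tested it, without the low-count filter or without WT 1, WT 2 or WT 3. The part of any of these in the members' values was not tested.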

How the data were processed

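Poly(A) RNA of liver was sequenced for 3 Entpd8 knockout and 3 wild-type samples. The deposited estimated counts, 1 column per library per the file headers, were made by the authors, need not be whole numbers and are not scaled to a common total. Per the submitters' processing notes, Trim Galore, STAR, Salmon and GRCm38 were used; tool versions, settings and the annotation were not given in the sources used here. Per the labels' protocols, the kits were RNeasy, a NEBNext poly(A) module and NEBNext Ultra II, with no word on whether strand was kept. Reads of 22 members with a protein-coding neighbour on the other strand could therefore be shared with it. Such counts split ambiguous reads by a model, which makes close paralogs and pseudogene copies less certain.

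Counts were rounded to whole numbers and filtered with filterByExpr. Libraries were scaled by TMM. Genotype was tested with the 2-sided quasi-likelihood test of edgeR 4.0.16 (robust estimation, R 4.3.3) over 14069 genes, with Benjamini-Hochberg adjustment over all of them and a threshold of 0.05. The common dispersion was 0.0461. Library totals of 32768774 to 46473531 counts limit the precision for genes at a few counts. Each SE is the absolute log2 fold change over the root of F. Of the genes, 45143 had an entry in GENCODE M21, which gave symbols, positions and lengths. The length is that of the shortest principal protein-coding transcript, and for 6 members such transcripts differed by more than 1.5 times. Library deviations of the members and of the mitochondrially encoded subunits are log2(CPM + 0.1) minus the gene's mean over the 6 libraries. Those of all genes under 1000 bases instead used edgeR's log2 CPM, which adds a prior count. The members and lists were chosen with earlier results of these data known, and so were the alternatives. Every member could be named, except 1 that is counted but not reported here by name. Values per library are given for called members, the most abundant 2 and the largest and smallest changes of each complex, isoform families, and other members chosen after their values were seen. Of other lists, called genes are named, or the gene of lowest p. Complex I to V follows the symbol, except that Ndufa4 and Ndufa4l2 were placed with complex IV. The same script was tested on simulated data. The replicate numbers did not pair the libraries, with correlations of same-numbered deviations of -0.08, 0.01 and -0.09. Alternatives were RLE, upper-quartile and total scaling, no and a stricter filter (at least 1 CPM in 3 libraries), no robust weights, DESeq2 1.42.0, limma 3.58.1 voom, a threshold of 0.1, removal of each library's length trend (lowess span 0.5), dropping mitochondrially encoded and hemoglobin genes, each library left out, and a replicate block. Figures were drawn with matplotlib 3.10.9.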

Additional observations from a re-analysis of the deposited data

How the results depend on the processing

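The median log2 fold change of the members was above 0 under every alternative run. It was 0.11 with the length trend removed (0.14 in complex I, 0.12 in complex III, 0.0773 in complex IV and 0.10 in complex V), where fitting by length takes out what short transcripts share, and 0.16 to 0.36 over the fits that left out 1 library. The number of members called was 2 in the report, 4 with RLE size factors, 4 with the stricter filter, 8 with DESeq2, 10 at a threshold of 0.1, 0 with the length trend removed and 0 to 4 without 1 library. It was 0 without WT 1, WT 3, KO 1 or KO 2. The cause was not tested. No member was called lower under any alternative. Over all genes 2871 of 14069 were called, and 603 to 3080 without 1 library. Higher calls over all genes tested were 1379 of 14069 in the report and 1454 of 14069 with RLE size factors. They were 1275 of 11959 with the stricter filter and 1895 of 14069 (13.5%) with DESeq2. At a threshold of 0.1, 4238 of 14069 genes were called in either direction. With the replicate number as a block, 0 members, 1 of 4 complex II genes and 1468 of all genes were called and the members' median was 0.26, and since the numbers did not pair the libraries the block is not evidence on the size of the effect. Ndufa6 was called in 10 of 17 alternatives and Uqcrb in 11 of 17, with log2 fold changes of 0.33 to 0.63 for Ndufa6 and 0.30 to 0.58 for Uqcrb. The sign of some uncalled members turned, and the cause was not tested. With the length trend removed the log2 fold change was -0.0713 for Ndufb2, -0.0656 for Ndufb7, -0.15 for Ndufa1, -0.10 for Ndufs7, -0.0372 for Atp5e, -0.0729 for Atp5mpl, -0.0617 for Atp5k and -0.12 for Atp5g1. Scaling by totals alone gave -0.0202 for Ndufs7 and -0.00408 for Atp5g1. Over the fits that left out 1 library it ran from -0.00698 to 0.24 for Ndufb2, -0.0101 to 0.22 for Ndufb7, -0.11 to 0.22 for Ndufa1, -0.0161 to 0.33 for Atp5mpl, -0.0351 to 0.31 for Atp5s and -0.0215 to 0.17 for Atp5g1, all lowest without KO 2. It ran from -0.0470 to 0.16 for Ndufs7, below 0 without WT 1 or KO 2, and from -0.63 to 0.38 for Cox7a1, above 0 without WT 1. At this depth, genes at a few counts, such as Cox4i2 and Cox8b, allow no comparison between genotypes.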
